A study of Homo sapiens with 6 samples.

Results

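The ERBB receptor genes EGFR, ERBB2, ERBB3 and ERBB4 and the ligand genes EGF, TGFA, AREG, HBEGF, BTC and NRG1 were followed in a breast cancer cell line and its tamoxifen-resistant variant. Every probe set was taken whose only gene symbol in the array annotation was one of these 10 genes. This gave 26 probe sets of 9 genes, among 22215 probe sets on the array that were no control. AREG was matched by no such probe set and was not analysed here. The number of probe sets was 6 for EGFR and for NRG1, 3 for TGFA and for HBEGF, 2 for ERBB2, ERBB3 and ERBB4, and 1 for EGF and for BTC. Probe sets of 1 gene share their target, so they are repeated readings and not replicates.

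SUM44 cells come from a breast carcinoma of the invasive lobular type, labelled as positive for the estrogen and progesterone receptors. LCCTam is its tamoxifen-resistant variant. Each line was read on 3 Affymetrix arrays, called replicates 1, 2 and 3 here, which for SUM44 are passages 74, 75 and 76 and for LCCTam passages 8, 9 and 10. Both lines grew in the same medium, and 500 nM 4-hydroxytamoxifen, the active metabolite of tamoxifen, was added for LCCTam only. A difference between the lines and an effect of the drug cannot be told apart, and each line stands for 1 cell population. The values are log2 expression values made by the authors with RMA, and differences are LCCTam minus SUM44 on that scale. Without detection calls there is no known level below which a gene counts as not expressed.

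The ERBB genes encode receptor tyrosine kinases of the cell surface. EGFR is bound by EGF, TGF-alpha, amphiregulin, HB-EGF and betacellulin, while ERBB3 and ERBB4 are bound by neuregulins. ERBB2 has no known ligand and acts as a partner of the other receptors, and ERBB3 has little kinase activity of its own but recruits PI3 kinase when it is phosphorylated. Most ligands are made as membrane precursors that proteases of the ADAM family release. In breast cells ERBB2 is known for its amplification in a subset of tumours, and signalling through these receptors has long been studied in resistance to endocrine therapy.

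To show sequence beside these readings, RefSeq promoter windows of build GRCh38.p14 were searched, and 8 of the 10 genes had windows that were used. ERBB3 had none, and for NRG1 windows on its chromosome were left out. AREG was among the 8, although it has no reading here. AP-2 factors are known to act on ERBB genes, and TFAP2A, which encodes one of them, was higher in LCCTam, by 0.43 on the log2 scale. The AP-2 core GCCNNNGGC, which reads the same on both strands, was searched in the 250 bases before each start. It was found in 2 of 10 windows, those of EGFR and TGFA below, and in 19.8% of all 35116 windows of that length. Matches are in capitals, with 2 in the EGFR window and 1 in the TGFA window.
EGFR (chr7:55018767-55019016, plus strand): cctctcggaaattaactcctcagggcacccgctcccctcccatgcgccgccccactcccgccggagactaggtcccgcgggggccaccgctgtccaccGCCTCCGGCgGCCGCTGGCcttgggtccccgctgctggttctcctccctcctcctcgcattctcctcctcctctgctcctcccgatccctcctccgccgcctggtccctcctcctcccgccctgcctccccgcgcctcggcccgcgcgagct
TGFA (chr2:70553827-70554076, minus strand): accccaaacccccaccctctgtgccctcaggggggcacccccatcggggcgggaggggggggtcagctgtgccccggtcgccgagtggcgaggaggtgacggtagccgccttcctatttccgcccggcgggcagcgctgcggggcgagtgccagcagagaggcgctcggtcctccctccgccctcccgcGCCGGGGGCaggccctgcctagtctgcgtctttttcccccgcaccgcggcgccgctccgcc
A match is only a match of letters. ESR1, the estrogen receptor alpha gene, was lower in LCCTam, and the core of its response element, GGTCA and then TGACC after any 3 bases, was found in 0 of the 10 windows and in 0.0399% of all windows. The same letters can lie outside these windows.

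No ERBB receptor or ligand differed between the lines past the threshold. Of the 26 probe sets 0 passed an adjusted p of 0.05 in limma, a linear model fitted to all probe sets with Benjamini-Hochberg adjustment, where 1494 of the 22215 probe sets, or 6.73%, passed. They were 0 higher and 0 lower, against 1.56% higher and 5.16% lower over all probe sets. With each gene read by its brightest probe set 0 of the 9 genes passed, against 7.56% of all 11963 genes. At an unadjusted p under 0.05 there were 3, against 21.8% of all probe sets, and these read ERBB2, ERBB4 and HBEGF. The lines did not overlap for 4 of the 26, which read ERBB2 with both probe sets, HBEGF and NRG1, where 28.7% of all probe sets did not overlap. The median difference was 0.007 over the 26 and 0.016 over all probe sets, and the median absolute difference was 0.119 against 0.142. By brightest probe set the median was -0.158 over the 9 genes, with 2 above 0. Over all 11963 genes it was 0.017, with 6412 above 0. The value of -0.158 is that of TGFA, given below also without LCCTam replicate 3. The 95% interval of the difference lay within 1, a 2-fold change, for 25 of the 26, against 92.3% of all probe sets, and the exception was ERBB4. On this scale differences of dim genes can be compressed, so these intervals bound the measured difference and may not bound the change in RNA.

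**Figure D1:**
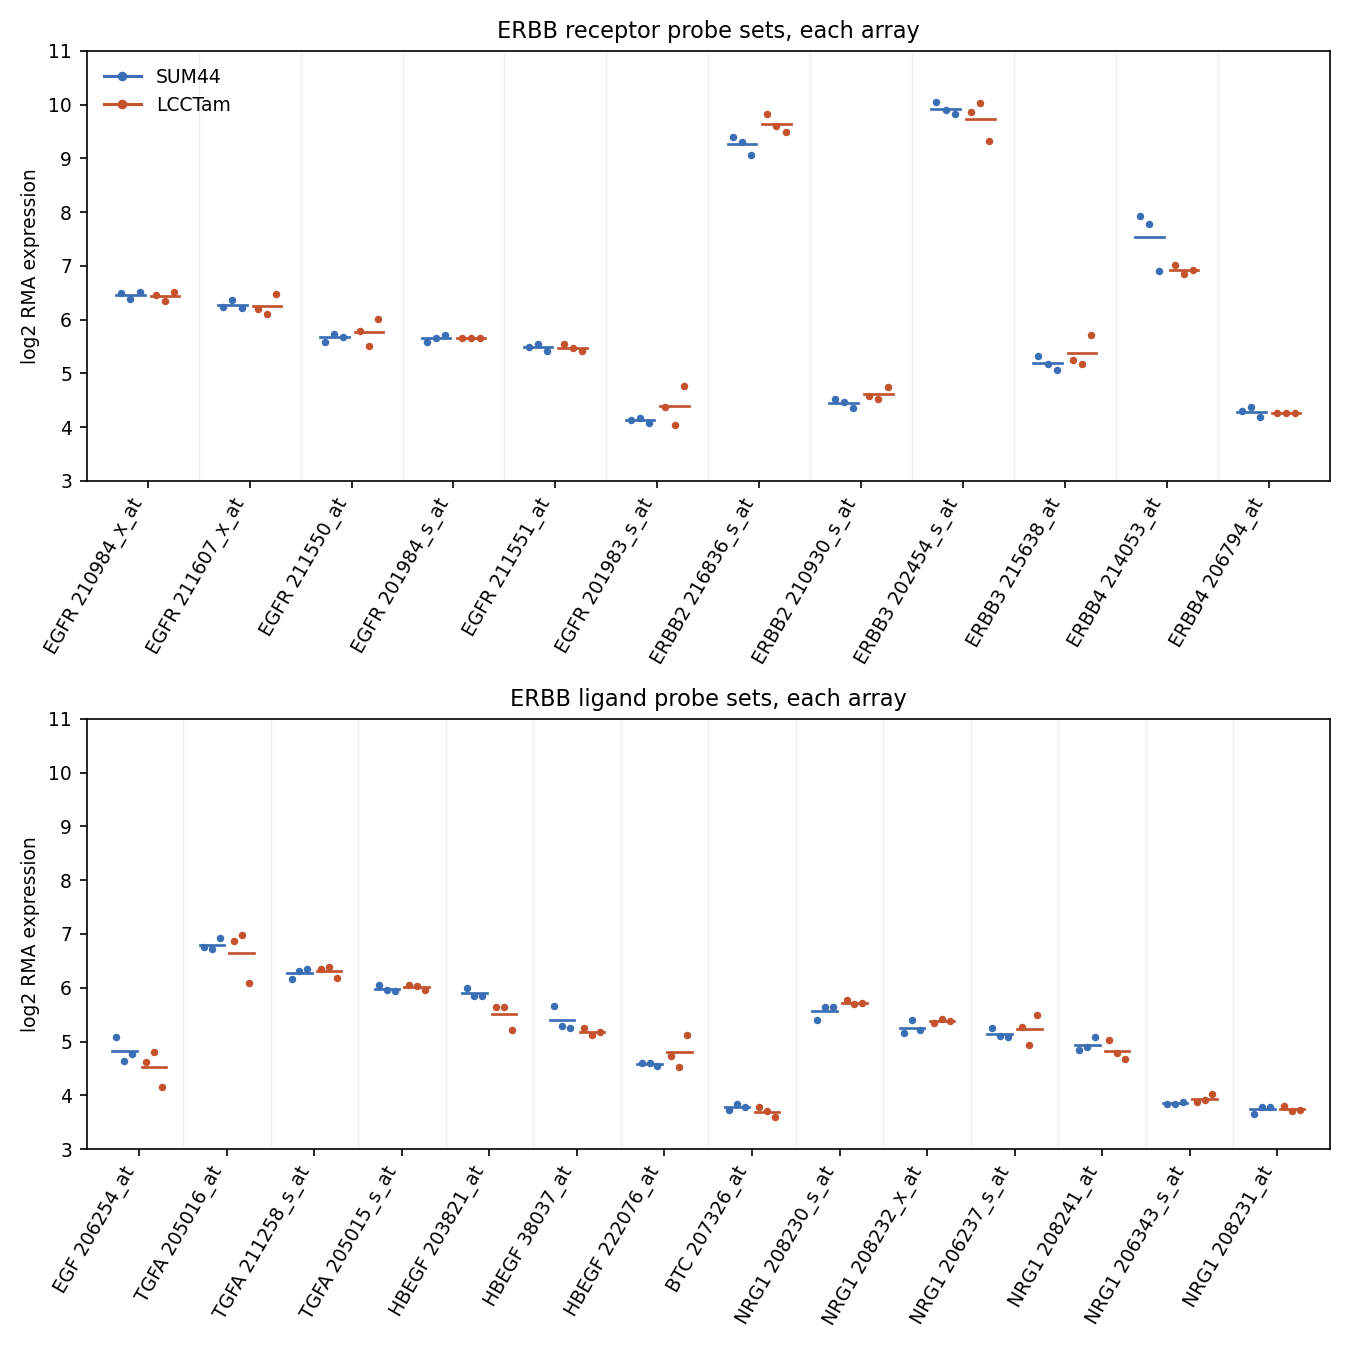
The log2 RMA expression of each of the 26 probe sets is plotted by array, 3 SUM44 points (blue) and 3 LCCTam points (orange) each in the order of replicates 1 to 3, with lines at the means. The 2 lines overlap for most probe sets, and ERBB2 216836_s_at lies higher in all 3 LCCTam arrays.

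The arrays were alike apart from LCCTam replicate 3. Across probe sets Pearson's r ranged from 0.988 to 0.995 among SUM44 arrays, from 0.985 to 0.996 among LCCTam arrays and from 0.971 to 0.982 for pairs of both lines. LCCTam replicate 3 had a 75th percentile of 7.5, against 7.67 to 7.77 on the other 5 arrays, and an actin 3' minus 5' difference of 1.92, against 0.90 to 1.15. It was the array farthest from the mean of the 6 for 14 of the 26 probe sets and for 8367 of all 22215. The part of its RNA or hybridization in the results was not tested, and values without it are given for the differences that moved most. Luminal genes were bright in both lines, such as KRT18 at 13.40 in SUM44 and 13.18 in LCCTam, while PGR, the progesterone receptor gene, was at 3.85 in both in spite of the label. Of the 10 luminal markers 2 fell, ESR1 and TFF1, and 0 rose. Of the marker lists, 0 of 9 fibroblast genes and 0 of 11 leukocyte or endothelial genes passed, and their mean levels were 5.38 to 5.43 and 5.18 to 5.26 in SUM44 and 5.37 to 5.44 and 5.21 to 5.31 in LCCTam.

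ERBB2, the receptor without a ligand of its own, read slightly higher in LCCTam, below the threshold. Its probe set 216836_s_at was at 9.40, 9.31 and 9.07 in SUM44 replicates 1 to 3 and at 9.83, 9.60 and 9.48 in LCCTam. Every LCCTam array lay above every SUM44 array. The difference was 0.38 (SE 0.13, 95% interval 0.08 to 0.68, limma adjusted p = 0.141), which is 1.3-fold. Without LCCTam replicate 3 it was 0.46 (adjusted p = 0.0738). With arrays weighted by their agreement with the fit it was 0.53 and passed (adjusted p = 0.00405). The weighted fit gave LCCTam replicate 1 a weight of 5.70 and LCCTam replicate 3 one of 0.20. In it 6828 of all 22215 probe sets passed, against 1494 without weights. The other ERBB2 probe set, 210930_s_at, was at 4.52, 4.46 and 4.36 in SUM44 and at 4.58, 4.52 and 4.75 in LCCTam. Its LCCTam arrays also lay above every SUM44 array, although LCCTam replicate 2 and SUM44 replicate 1 are equal when rounded. The difference was 0.17 (95% interval -0.05 to 0.39, adjusted p = 0.355).

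Genes beside ERBB2 on its chromosome did not pass in the same fit either. Of 15 listed neighbours 11 were measured and 0 passed in limma. Of the 11 differences 9 were above 0, where 6412 of all 11963 genes were. The median was 0.08, against 0.017 over all genes. Among 17 genes of unrelated tissues 14 were above 0, with a median of 0.10. The largest difference of a neighbour was that of MED1, a subunit of the Mediator complex, at -0.48 (adjusted p = 0.0723). It was at 5.24, 5.52 and 5.30 in SUM44 and at 4.79, 4.75 and 5.09 in LCCTam. Without LCCTam replicate 3 this MED1 difference was -0.59 and passed (adjusted p = 0.0215). The other MED1 probe set differed by -0.205 (limma adjusted p = 0.323), with overlapping lines. With array weights, with which ERBB2 passed, 4 of the 11 neighbours were higher and 2 lower. Over all 22215 probe sets that fit called 3310 higher and 3518 lower. After quantile normalization or at an adjusted p under 0.10 there was 1 lower neighbour and 0 higher. GRB7, an adaptor gene next to ERBB2, differed by 0.08 and STARD3, which encodes a lipid transfer protein, by 0.19 (both chosen after their values were seen).

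ERBB3, which couples the receptors to PI3 kinase, was bright in both lines with no difference past the threshold. Its probe set 202454_s_at was at 10.05, 9.90 and 9.82 in SUM44 and at 9.86, 10.03 and 9.32 in LCCTam, so the lines overlapped and LCCTam replicate 3 was lowest. The difference was -0.19 (SE 0.18, 95% interval -0.62 to 0.25, adjusted p = 0.603), and 0.02 (95% interval -0.22 to 0.27) without that array. The dim probe set 215638_at differed by 0.19 in the other direction, with LCCTam replicate 3 highest at 5.71 and the other 5 arrays between 5.06 and 5.33. Without LCCTam replicate 3 that difference was 0.02 (95% interval -0.22 to 0.26).

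ERBB4, a second neuregulin receptor, had the largest difference of the 26, and it turned on 1 SUM44 array. Its probe set 214053_at was at 7.92, 7.77 and 6.91 in SUM44 and at 7.01, 6.85 and 6.92 in LCCTam. SUM44 replicates 1 and 2 were high, while SUM44 replicate 3 lay among the LCCTam arrays. The difference was -0.61 (SE 0.25, 95% interval -1.21 to -0.02, adjusted p = 0.219), or 1.53-fold lower. Without SUM44 replicate 3 it was -0.92 (95% interval -1.18 to -0.67) and passed (adjusted p = 0.01). It also passed with array weights, at -0.62 (adjusted p = 0.036), as did 6828 of all 22215 probe sets. Without LCCTam replicate 3 it was -0.61 (adjusted p = 0.27). The other ERBB4 probe set, 206794_at, was dim, at 4.18 to 4.37 in SUM44 and 4.26 to 4.27 in LCCTam, and differed by -0.01 (adjusted p = 0.944).

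EGFR, the receptor of most of the ligands measured here, was nearly level. Its brightest probe set, 210984_x_at, was at 6.49, 6.38 and 6.51 in SUM44 and at 6.46, 6.35 and 6.52 in LCCTam, a difference of -0.02 (SE 0.08, 95% interval -0.22 to 0.18, adjusted p = 0.936). This probe set carries the suffix _x_at, which marks probes that can cross-hybridize. The 6 EGFR probe sets differed by -0.02 to 0.27, 3 above 0 and 3 below, and by -0.12 to 0.08 without LCCTam replicate 3. The largest of these was that of 201983_s_at, at 4.13, 4.17 and 4.07 in SUM44 and 4.38, 4.03 and 4.77 in LCCTam, with LCCTam replicate 3 highest. Its difference of 0.27 (adjusted p = 0.426) was 0.08 without that array.

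**Figure D2:**
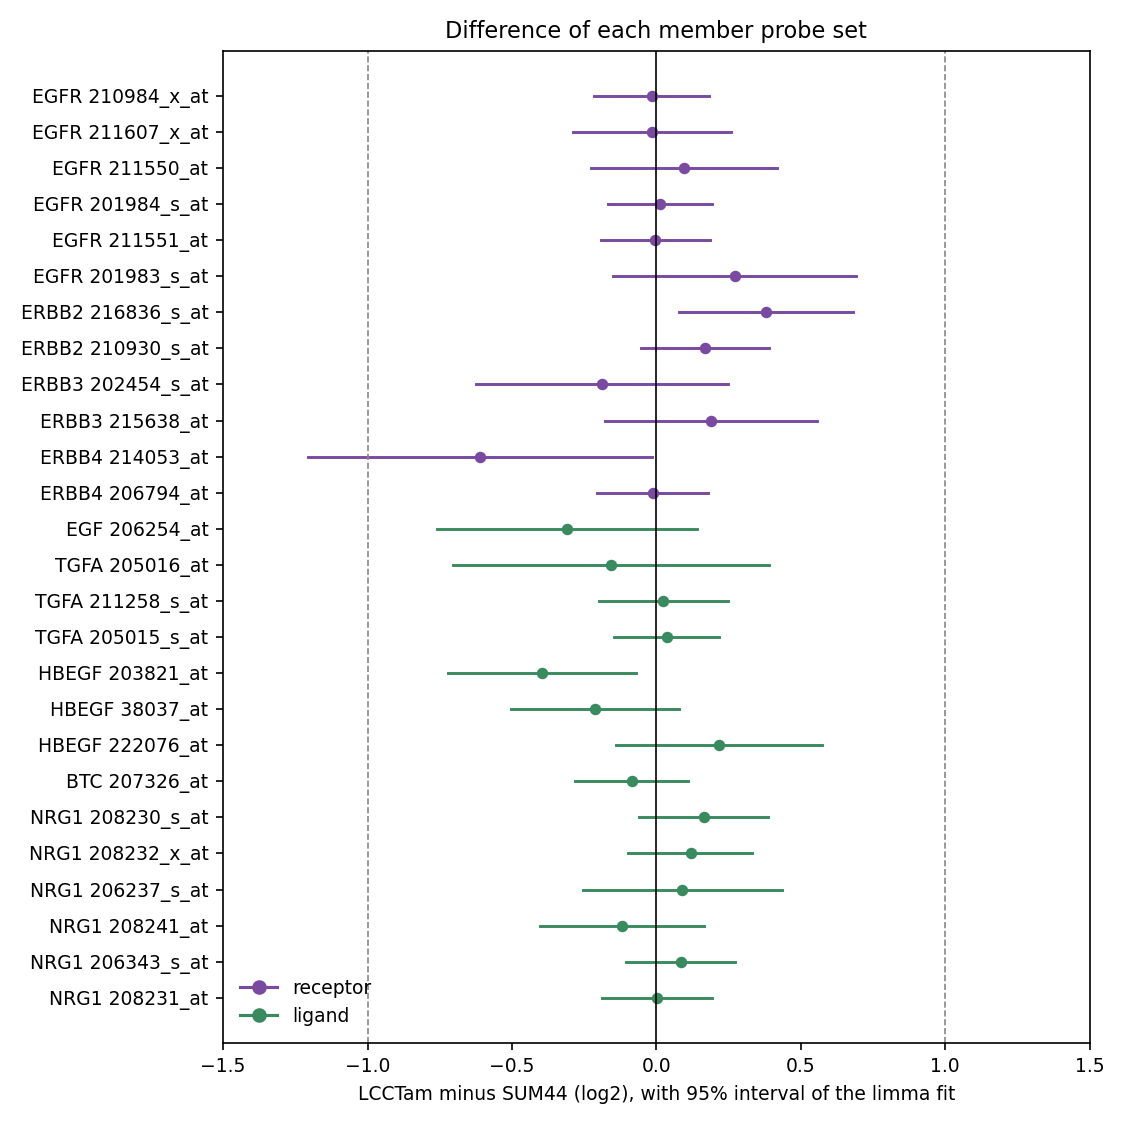
The difference LCCTam minus SUM44 on the log2 scale is plotted for each of the 26 probe sets, with its 95% interval from the limma fit (receptors purple, ligands green); dashed lines mark a 2-fold change and the solid line 0. The interval of ERBB4 214053_at reaches -1.21, and the other 25 intervals lie inside the dashed lines.

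Among the ligands, HBEGF, which encodes a heparin-binding ligand of EGFR and ERBB4, read lower in LCCTam with its brightest probe set, below the threshold. Probe set 203821_at was at 6.0, 5.85 and 5.84 in SUM44 and at 5.65, 5.65 and 5.21 in LCCTam, with no overlap. The difference was -0.40 (SE 0.14, 95% interval -0.72 to -0.07, adjusted p = 0.151). Without LCCTam replicate 3, the lowest array, it was -0.25 (adjusted p = 0.12). With array weights it was -0.24 and passed (adjusted p = 0.0408), as did 6828 of all 22215 probe sets. The second HBEGF probe set, 38037_at, was at 5.66, 5.29 and 5.25 in SUM44 and at 5.25, 5.13 and 5.17 in LCCTam. It differed by -0.21 (adjusted p = 0.372). The third, 222076_at, differed by 0.22 (adjusted p = 0.455), with LCCTam replicate 3 at 5.13 and the other arrays at 4.53 to 4.73, and by 0.05 without that array. The 3 HBEGF readings thus did not share a direction.

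TGFA, which encodes the EGFR ligand TGF-alpha, differed little except on 1 array. Probe set 205016_at was at 6.76, 6.72 and 6.93 in SUM44 and at 6.87, 6.99 and 6.08 in LCCTam, and LCCTam replicate 3 was the low array. The difference was -0.16 (SE 0.23, 95% interval -0.71 to 0.39, adjusted p = 0.741), and 0.12 (95% interval -0.11 to 0.36) without LCCTam replicate 3. The other 2 TGFA probe sets differed by 0.024 and 0.035, and their lines overlapped.

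EGF and BTC, which encode epidermal growth factor and betacellulin, were dim. EGF was at 5.08, 4.64 and 4.77 in SUM44 and at 4.61, 4.80 and 4.15 in LCCTam, with overlapping lines. Its difference of -0.31 (SE 0.19, 95% interval -0.76 to 0.14, adjusted p = 0.398) was -0.12 without LCCTam replicate 3. BTC was at 3.73, 3.84 and 3.78 in SUM44 and at 3.78, 3.71 and 3.6 in LCCTam, a difference of -0.09 (adjusted p = 0.595) that was -0.04 without LCCTam replicate 3.

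NRG1, the neuregulin gene whose products bind ERBB3 and ERBB4, had 6 probe sets with differences of -0.12 to 0.16, 5 of them above 0. The brightest, 208230_s_at, was at 5.40, 5.64 and 5.64 in SUM44 and at 5.77, 5.69 and 5.71 in LCCTam. The LCCTam arrays lay just above the SUM44 arrays, with a difference of 0.16 (SE 0.09, 95% interval -0.06 to 0.39, adjusted p = 0.37). The other 5 NRG1 probe sets overlapped between the lines. Without LCCTam replicate 3 the brightest differed by 0.17, while 206237_s_at turned from 0.09 to -0.04, so that 4 of the 6 were above 0. Of the remaining ligand genes, EREG and NRG2 were measured of 5 listed and 0 passed. Of their brightest probe sets the larger difference was that of NRG2, another neuregulin gene, at 0.17 (adjusted p = 0.519), and it was 0.04 (adjusted p = 0.864) without LCCTam replicate 3. The dimmer NRG2 probe set was at 4.04, 3.98 and 4.08 in SUM44 and at 4.15, 4.29 and 4.73 in LCCTam. Its lines did not overlap, and its difference was 0.36 (SE 0.15, adjusted p = 0.23).

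To describe how dim these readings are, the 26 probe sets were set beside 26 probe sets of 17 genes of unrelated tissues, such as lens, pancreas and testis. Those had means over the 6 arrays of 3.95 to 6.26, with a median of 4.90. Of the ERBB probe sets 7 had means above that range, and they read EGFR and TGFA with 2 probe sets each and ERBB2, ERBB3 and ERBB4 with 1 each. The other 19, with all of those for EGF, HBEGF, BTC and NRG1, lay within it or below. Probes differ in affinity, so this neither orders the genes nor shows that one is not expressed, and at such levels a difference may not be detectable.

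The arrays also gave genes whose profile over the 6 arrays was most like that of each receptor's brightest probe set, by Pearson's r over 6 arrays of 2 lines, as a description. For ERBB2 these were MORN1 (0.998), ETV4 (0.995) and WDR46 (0.994), and ETV4 encodes an ETS transcription factor. For ERBB3 they were FLOT1 (0.997), BLTP2 (0.996) and WIPF2 (0.995), and FLOT1 encodes a membrane raft protein. For ERBB4 they were GOSR1 (0.992), CALD1 (0.990) and GPX2 (0.989), whose own differences were -0.17, -1.15 and -1.28 with adjusted p of 0.158 to 0.377. For EGFR they were LGR5 (0.989), CAST (0.989) and EXOSC2 (0.988), which differed by -0.02 to -0.01. The EGFR probe set itself spanned only 0.17 over the 6 arrays. These genes were picked for the highest r among all named probe sets of other genes. A high r thus follows in part from the choice, and shared expression was not tested.

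Around the receptors, more genes passed as lower than as higher in LCCTam, a balance that depended on how the arrays were weighted. In 6 lists of other ligands, shedding proteases, signal transducers, inhibitors and trafficking, transcription factors and neighbours of ERBB2, 78 different genes were measured (GRB7 stands in 2 lists), each read by its brightest probe set. Of these 11 fell, 2 rose and 65 did not pass in limma, where 5.58% of all 11963 genes were lower and 1.98% higher. The count lower moved with the array left out, and so did the share of all genes that were lower. The count was 3 without SUM44 replicate 2 (1.42% of all genes), 5 without LCCTam replicate 1 (1.82%) and 6 without SUM44 replicate 1 (4.25%). It was 7 without SUM44 replicate 3 (3.86%) or LCCTam replicate 2 (2.57%), and 13 without LCCTam replicate 3 (7.36%). The count higher was 4 without LCCTam replicate 3 and 0 without any 1 of the other 5 arrays. The share of lower calls over all probe sets was 76.8%, and 57.1% after quantile normalization between arrays, with which 9 of the 78 genes were lower and 4 higher. With array weights it was 51.5%, and 20 of the 78 genes were lower and 19 higher. In that weighted fit 16.8% of all genes were lower.

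**Figure D3:**
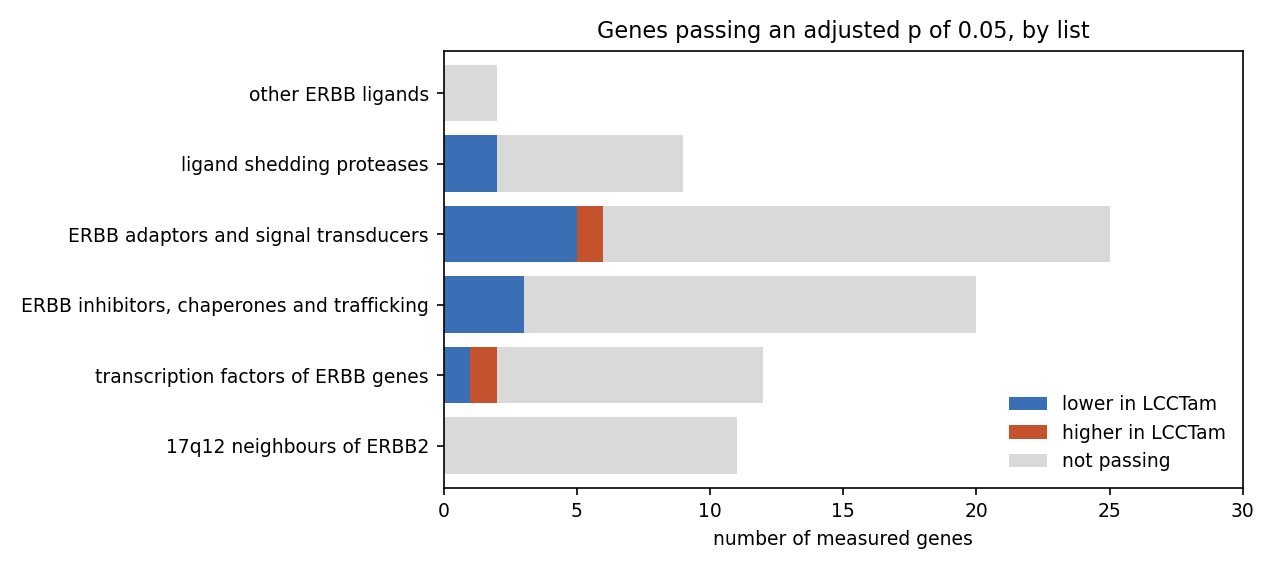
Bars count the measured genes of each list that were lower in LCCTam (blue), higher (orange) or not passing (grey) at a limma adjusted p of 0.05. The 25 adaptors and signal transducers include 5 lower and 1 higher, and the ligand and neighbour lists have 0 passing.

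Among the proteases that release ERBB ligands, 2 of 9 measured fell and 0 rose, with a median difference of -0.02. ADAM9, a metalloprotease, was at 11.24, 11.15 and 10.77 in SUM44 and at 9.69, 9.69 and 9.94 in LCCTam. All LCCTam arrays were lower, by 1.28 on average (SE 0.14, adjusted p = 0.00472), and this passed with each of the 6 arrays left out (adjusted p of 0.00461 to 0.0394). ADAM10, known for the release of EGF and betacellulin, was at 8.53, 8.57 and 8.49 in SUM44 and at 7.44, 7.53 and 7.85 in LCCTam, a difference of -0.93 (SE 0.12, adjusted p = 0.0076). All 3 ADAM10 probe sets passed, all lower, and the adjusted p of the brightest was 0.0522 without SUM44 replicate 2. ADAM17, the main protease for TGF-alpha, amphiregulin and HB-EGF, differed by -0.02 (95% interval -0.25 to 0.22), a gene named after its value was seen.

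Among adaptors and signal transducers 25 of 35 listed were measured, and 5 fell and 1 rose, with a median difference of 0.03. PIK3R1, which encodes the p85-alpha regulatory subunit of PI3 kinase, was at 9.72, 9.94 and 9.65 in SUM44 and at 8.22, 8.66 and 8.83 in LCCTam. It fell by 1.20 on the log2 scale (SE 0.17, adjusted p = 0.0101), and all 3 of its probe sets passed. Without SUM44 replicate 2 the adjusted p of the brightest was 0.0623. PIK3R3, which encodes another regulatory subunit, was at 8.28, 8.25 and 8.18 in SUM44 and at 7.14, 7.46 and 7.16 in LCCTam. Its difference of -0.98 (SE 0.11, adjusted p = 0.00439) passed with each array left out, while its dim second probe set differed by -0.11 and did not pass.

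PTPN11, which encodes the phosphatase SHP2 that carries receptor signals to RAS, was at 10.31, 10.32 and 10.20 in SUM44 and at 9.14, 9.24 and 9.78 in LCCTam. The difference was -0.89 (SE 0.17, adjusted p = 0.0266), and 3 of its 5 probe sets passed, all lower. SOS2, a RAS exchange factor, differed by -0.58 (adjusted p = 0.0395), and 2 of its 5 probe sets passed, both lower. NCK1, an adaptor, differed by -0.58 (adjusted p = 0.0464) and GRB2, the adaptor that links receptors to SOS proteins, rose by 0.49 (adjusted p = 0.0497), both named after their values were seen. The brightest probe sets of PTPN11, SOS2 and GRB2 each failed in all fits that left out 1 array other than LCCTam replicate 3. Their adjusted p was up to 0.125, 0.148 and 0.173. NCK1 failed in all 6, with adjusted p of 0.0513 to 0.145.

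Of 20 measured inhibitors, chaperones and trafficking genes 3 fell and 0 rose, with a median of -0.01. PTPN12, a tyrosine phosphatase that acts on receptor tyrosine kinases, was at 8.92, 8.80 and 9.03 in SUM44 and at 7.78, 7.82 and 8.04 in LCCTam. It fell by 1.04 on the log2 scale (SE 0.10, adjusted p = 0.00347), and this passed with each array left out, while its 2 dimmer probe sets did not pass. ERBIN, whose protein binds ERBB2, was at 7.94, 8.28 and 8.12 in SUM44 and at 7.40, 7.41 and 7.20 in LCCTam, a difference of -0.77 (SE 0.11, adjusted p = 0.012). Its adjusted p was 0.0618 without SUM44 replicate 2 and 0.0522 without LCCTam replicate 1. STAM, of the endosomal sorting of receptors, differed by -0.49 (adjusted p = 0.0404) and failed without any 1 array other than LCCTam replicate 3 (adjusted p up to 0.166).

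MUC1, a membrane mucin that can bind ERBB receptors, was read by 3 probe sets (named after its values were seen). The brightest was at 9.03, 8.60 and 7.64 in SUM44 and at 7.18, 7.06 and 6.90 in LCCTam, a difference of -1.38 (adjusted p = 0.0547), and a second at -1.40 passed (adjusted p = 0.0363). The third differed by -0.33 (adjusted p = 0.251), with overlapping lines. SUM44 replicate 3 was the lowest SUM44 array for MUC1, as it was for the brightest probe sets of ERBB2, ERBB3, ERBB4 and HBEGF. It was not the lowest for those of EGFR, EGF, TGFA, BTC and NRG1.

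**Figure D4:**
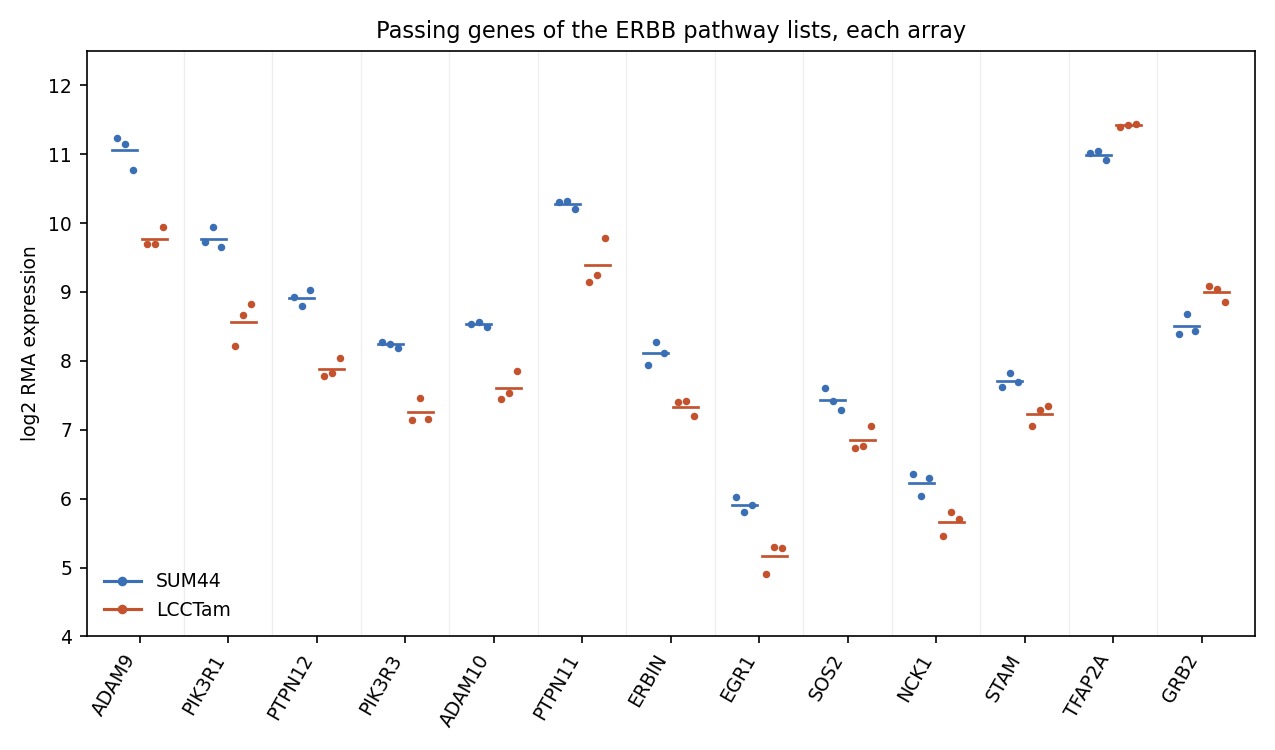
The log2 RMA expression of the 13 passing genes of the pathway lists is plotted by array (SUM44 blue, LCCTam orange, lines at the means), ordered by their difference. The genes were chosen by passing on these same values, so the gap between the lines adds no support. Of the 13, 11 lie lower in LCCTam, and TFAP2A and GRB2 lie higher.

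Of 12 transcription factors known for ERBB genes 1 rose and 1 fell, with a median of 0.00. TFAP2A, the AP-2 alpha gene, was at 11.02, 11.04 and 10.91 in SUM44 and at 11.39, 11.42 and 11.44 in LCCTam. The difference was 0.43 (SE 0.08, 95% interval 0.25 to 0.61, adjusted p = 0.0231), and 1 of its 3 probe sets passed. EGR1, an immediate-early factor, was at 6.03, 5.81 and 5.9 in SUM44 and at 4.91, 5.30 and 5.29 in LCCTam, a difference of -0.74 (adjusted p = 0.0203). The other EGR1 probe set differed by -0.13 (adjusted p = 0.53), with overlapping lines. TFAP2A failed without any 1 array other than LCCTam replicate 3 (adjusted p up to 0.0914), and EGR1 failed without any 1 SUM44 array or LCCTam replicate 1 (adjusted p up to 0.0781). TFAP2C, the related AP-2 gamma gene, differed by -0.28 (adjusted p = 0.504), named after its value was seen. ESR1 itself differed by -1.65 (adjusted p = 0.00172).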

How the data were processed

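Total RNA of 3 SUM44 and 3 LCCTam cultures was hybridized to 1 Affymetrix array each. The authors made the deposited log2 values with RMA, per the submitters' processing notes and the series' design text; version and chip definition: not given in the sources used here. No label calls the passages independent cultures, so p-values measure only the spread between these samples. The lines share no passage number, and scan dates were not used here, so array batch and line cannot be told apart. The number of arrays limits the precision.

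Of 22283 probe sets 68 controls were left out. Of the other 22215, 19065 had 1 gene symbol in the platform annotation, 1043 had several and 2107 were not listed, and the last 2 kinds were named nowhere. Symbols were updated through Entrez identifiers with the RefSeq table of GRCh38.p14 for 19053. The linear model covered all 22215 (limma 3.58.1 under R 4.3.3, lmFit then eBayes, dim probe sets kept; prior degrees of freedom 2.98), and p-values were adjusted by Benjamini-Hochberg over all of them. Intervals are the fit's 95% intervals. A gene of a list was read by its brightest probe set (mean of all 6 arrays), which gave 11963 genes. The fit was tested on simulated data.

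The members and lists were chosen with earlier results of these data known. All member probe sets are named, up to 4 passing genes per list by absolute difference, or the largest where none passed, and the 3 genes most like each receptor; other names were chosen after their values were seen. Alternatives changed the probe sets fitted, the normalization, the variance prior, array weights and the threshold, and left out each array in turn.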

Additional observations from a re-analysis of the deposited data

How the results depend on the processing

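Under the 16 alternatives tried, no member probe set changed sign with a call. With 1 probe set per gene 9 of the 26 member probe sets were fitted. Without the suffixes _x_at and _s_at 13 were, and without the dimmest 25% of probe sets 18. Of those fitted 0 passed in either direction, apart from the fits with array weights or arrays left out. With array weights 1 was higher (ERBB2) and 2 were lower (ERBB4 and HBEGF). With single arrays left out 0 to 1 were lower (1 without SUM44 replicate 3, ERBB4) and 0 higher. Of all probe sets 1494 passed, 948 with 1 probe set per gene, 705 without the suffixes _x_at and _s_at (fewer were tested in both), 6828 with array weights, 2566 at an adjusted p under 0.10, and 357 to 2398 with 1 array left out. Of the 78 pathway genes 11 were lower, where 5.58% of all genes were. Without those suffixes 52 pathway genes were tested and 7 were lower (5.19% of all genes). The lower pathway genes were 20 with array weights (16.8%) and 3 to 13 with 1 array left out (1.42% to 7.36%). The 2 higher were 1 without those suffixes, with centred arrays, with a trend and with the robust prior, 4 after quantile normalization, 19 with array weights, and 0 to 4 with 1 array left out. Beyond the number tested, the cause was not tested. The median difference of all probe sets was 0.003 to 0.034 in every setting. No paired analysis was possible because the lines share no passage or replicate number in the labels. Dim probe sets limit what can be detected.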
